A study of Mus musculus with 4 samples.

Results

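Transcripts of 10 subunits of the SWI/SNF chromatin remodeling complexes were followed in mouse livers with a hepatocyte deletion of Smarca4, the gene of the ATPase Brg1. The 10 genes were chosen by name as the catalytic, core and defining subunits of the BAF and PBAF complexes (Smarca4, Smarca2, Smarcc1, Smarcc2, Smarcd1, Smarcd2, Arid1a, Arid1b, Arid2 and Pbrm1). All 10 were found among the 22103 entries of the expression table, and all 10 passed the filter on low values. RNA-seq of whole liver was available for 2 wild type (WT) mice and 2 hepatocyte-specific Brg1 knockout mice (labelled KO, here Brg1 LKO or LKO). The LKO mice carry a floxed Smarca4 (Smarca4 f/f) and the Alb-Cre transgene, and the WT mice were littermates. The study's methods describe male mice of 8 weeks on the NIAAA procedure, in which 2 weeks of ethanol in a liquid diet end with a single gavage of ethanol, while the sample labels give 15 days of drinking alcohol. Both groups had received alcohol, so the comparison is between genotypes under alcohol, with no alcohol-free liver in it. The Alb promoter drives Cre mainly in hepatocytes, and the endothelial, Kupffer and stellate cells of the liver keep an intact Smarca4.

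SWI/SNF complexes use ATP to slide or evict nucleosomes and so open promoters and enhancers to transcription factors. Each complex holds 1 ATPase, either Brg1 or its paralog Brm (encoded by Smarca2), on a core built from a pair of Smarcc proteins and a Smarcd protein. An Arid1a or Arid1b subunit marks the canonical BAF complex, and Arid2 together with Pbrm1 marks PBAF. In several cell types that lack Brg1, Brm-containing complexes take over part of its work, and the transcripts of Smarca2 and of the other subunits were examined here for a rise.

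Because the paralogs are related in sequence, the transcripts were first compared letter by letter to see whether a Smarca4 read could be taken for a Smarca2 read. The closest stretch of the ATPase pair is shown, 20 identical bases with 60 bases on either side, from the part of exon 4 that encodes the QLQ domain of each protein. Both stretches lie in coding sequence on the plus strand of GRCm38, at chr9:21635685-21635824 for Smarca4 and at chr19:26630825-26630964 for Smarca2, and capitals mark the bases that differ.
Smarca4: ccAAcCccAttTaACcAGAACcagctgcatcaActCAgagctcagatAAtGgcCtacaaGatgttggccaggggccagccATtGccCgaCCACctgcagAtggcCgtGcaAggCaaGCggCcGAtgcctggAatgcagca
Smarca2: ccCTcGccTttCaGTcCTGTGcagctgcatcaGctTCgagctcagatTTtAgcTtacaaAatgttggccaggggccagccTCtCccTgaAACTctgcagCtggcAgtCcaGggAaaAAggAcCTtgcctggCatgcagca
Of these 140 bases 39 differ, an identity of 72.1%. Over their whole length the listed transcripts share no run longer than 20 bases, and 0 of the 6333 words of 31 bases in Smarca4 occur in Smarca2.

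The same comparison was made for the Smarcc scaffold pair, whose closest stretch is the most alike of the sequences shown. It holds 26 identical bases with 60 on either side and runs across the junction of exons 25 and 26 in both genes. In Smarcc1 it lies at chr9:110213509-110213643 and chr9:110221892-110221902, and in Smarcc2 at chr10:128485560-128485694 and chr10:128487255-128487265, all coding, on the plus strand, with capitals for bases that differ.
Smarcc1: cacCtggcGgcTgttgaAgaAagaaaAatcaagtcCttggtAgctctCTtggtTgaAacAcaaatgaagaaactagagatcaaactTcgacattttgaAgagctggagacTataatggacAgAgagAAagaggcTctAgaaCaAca
Smarcc2: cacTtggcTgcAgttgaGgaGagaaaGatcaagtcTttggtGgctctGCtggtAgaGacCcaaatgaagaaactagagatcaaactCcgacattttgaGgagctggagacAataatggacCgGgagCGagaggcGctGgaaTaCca
Here 24 of 146 bases differ (83.6% identity). The longest shared run was 18 bases for Smarcd1 and Smarcd2 and 29 bases for Arid1a and Arid1b, and no pair shared a word of 31 bases. In the transcripts compared, a match of 31 bases therefore belongs to 1 gene of a pair, and other isoforms were not compared. For Smarcc1 the longest transcript of the annotation stands in, because the listed one, ENSMUST00000035057, was not in it, and for the same reason no read number is given for this gene.

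Values are FPKM, fragments per kilobase of transcript scaled to the mapped total of the library, deposited as 1 value per gene and liver, each under a single Ensembl transcript. Library totals estimated from the steps between low values were 80928157 and 79897072 reads for WT livers 1 and 2, and 78170529 and 72591404 reads for LKO livers 1 and 2. The 12346 genes that averaged 0.1 FPKM or more were compared with limma on log2(FPKM + 0.1), a scale that understates the change of low genes. Genes with p under 0.05 before adjustment and over 2-fold apart were called, by the rule the study applied. This threshold was passed by 121 genes, 0.98% of those tested (54 higher, 0.437%, and 67 lower, 0.543%), while 247 genes had an unadjusted p under 0.05 and 0 genes had a Benjamini-Hochberg adjusted p under 0.05. With 2 livers against 2 the smallest p an exact permutation test can give is 0.333. The limma p-values pool the spread between the 2 mice of each group with that of all genes tested. Smarca4 and Smarca2 therefore had nearly the same standard error (0.34 and 0.35), although their own spreads differed. The livers were also uneven in scale, since the median gene was 1.23 times higher in WT liver 2 than in WT liver 1 and 1.26 times higher in LKO liver 2 than in LKO liver 1.

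Smarca4, the targeted gene, was lower in both LKO livers. WT livers had 1.79 and 1.95 FPKM, and the LKO livers 0.608 and 0.579 FPKM (921, 993, 303 and 268 estimated reads). The values of the groups lay well apart, and the replicates of each group lay close together. The mean fell from 1.87 ± 0.116 to 0.593 ± 0.0204 FPKM (mean ± SD, n = 2 livers), and 31.8% of the WT transcript was left. Its log2 fold change was -1.50 (95% interval -2.23 to -0.78, unadjusted p = 0.000548 and adjusted p = 0.9999 from limma), with the 6th lowest p and the 10th lowest fold change of all genes tested. With a pseudocount of 1 in place of 0.1 it was -0.85, and then 0 of the 10 subunits passed the threshold. In the fit reported here it was the only one of the 10 subunits past the threshold and the only one whose groups did not overlap. For comparison, 0.543% of all genes tested passed the threshold as lower, and 20.7% had groups that did not overlap, in either direction. The table gives 1 value for the gene (listed under ENSMUST00000098948, 34 exons, chr9:21616169-21704230, plus strand), which does not separate the floxed exons from the rest. In bulk liver, fewer cells of a type and less RNA per cell cannot be told apart.

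The Smarca4 transcript that remained was measured beside markers of liver cell types. Summed over 10 Kupffer cell and macrophage markers, WT livers had 44.9 and 45.0 FPKM and the LKO livers 58.0 and 119.5 FPKM. All 10 markers had a fold change above 0 (median 0.80 on the log2 scale), 8 of 10 did not overlap between groups (10.7% of all genes lay apart in that direction), and 2 passed the threshold as higher (0.437% of all genes). These were Cd68, a lysosomal glycoprotein of macrophages, at 1.66 and 2.02 FPKM in WT and 3.90 and 7.01 FPKM in LKO livers, and Vsig4, a complement receptor of Kupffer cells, at 2.33 and 2.69 against 2.79 and 9.32 FPKM. Smarca4 had 0.608 and 0.579 FPKM in LKO livers 1 and 2, a small difference, and 1 pair of livers cannot show whether it is related to the macrophage sum. The sum of 8 sinusoidal endothelial markers was 33.6 FPKM in each WT liver and 26.9 and 33.6 FPKM in LKO livers, and that of 8 stellate cell markers 21.3 and 25.5 against 20.6 and 25.2 FPKM. Neutrophil markers summed to 11.4 and 4.23 FPKM in the WT and 16.2 and 7.78 FPKM in LKO livers, which overlapped. Of the 4 tested, 2 lay above 0 (S100a8 and S100a9, which made up most of the sum) and 2 below (Retnlg and Cxcr2). T and NK cell markers summed to 0.72 FPKM at most, B cell markers to 0.244 FPKM at most, and 5 cholangiocyte markers to between 3.21 and 4.67 FPKM. Hepatocyte markers, Alb and Ttr among them, were abundant in all 4 livers, at sums of 24840 and 20280 FPKM in the WT and 20310 and 23510 FPKM in LKO livers. No marker in the table was at 0 in all 4 livers. The part of these cells in the Smarca4 that remained was not tested.

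**Figure D1:**
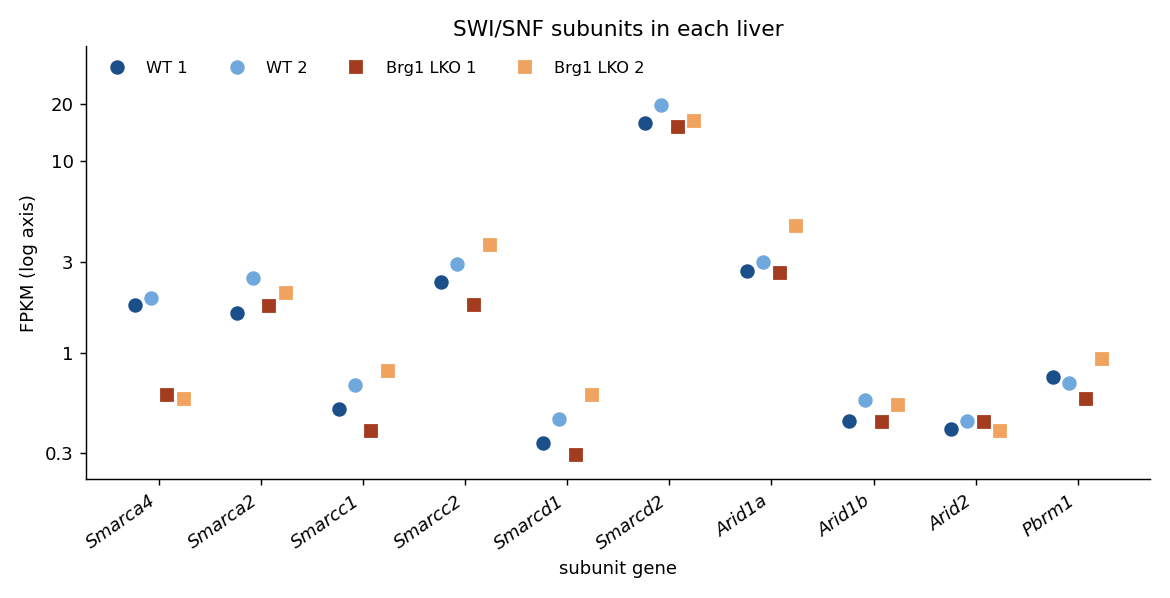
FPKM (log axis) of the 10 SWI/SNF subunits in each of the 4 livers, WT as circles and Brg1 LKO as squares, 1 point per liver. Smarca4 is the only gene whose squares (0.608 and 0.579 FPKM) lie apart from its circles (1.79 and 1.95 FPKM), and Smarcc1, Smarcc2, Smarcd1, Arid1a and Pbrm1 have their highest value in LKO liver 2 and their lowest in LKO liver 1.

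Smarca2, the alternative ATPase, was not measurably higher in LKO livers. WT livers had 1.63 and 2.48 FPKM and the LKO livers 1.77 and 2.06 FPKM (778, 1171, 818 and 886 estimated reads). Both LKO values lay between the WT values. The means were 2.05 ± 0.603 in WT and 1.92 ± 0.208 FPKM in LKO livers (mean ± SD, n = 2), and the log2 fold change was -0.07 (95% interval -0.83 to 0.69, unadjusted p = 0.848, limma). The interval reaches from 0.564-fold to 1.61-fold, so a rise or fall within these bounds is not excluded by this fit, in which libraries were not rescaled. The sign rested on single livers, since the log2 fold change was 0.22 without WT liver 2 and 0.04 without LKO liver 1, against -0.36 without WT liver 1. Smarca2 stands in the table under ENSMUST00000099537 (33 exons, chr19:26607270-26778273, plus strand), which the annotation lists as a nonsense-mediated decay transcript. It has 5913 bases, and whether reads of the other Smarca2 isoforms entered its value is not given in the sources used here.

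The proportion of the ATPase transcripts differed between the groups. Smarca2 made up 47.7% and 56.0% of the sum of the pair in WT livers and 74.4% and 78.1% in LKO livers, a difference of 24.4 percentage points with no overlap (exact permutation p = 0.333, two-sided, the smallest possible). The mean share was 51.8 ± 5.88% in the WT and 76.3 ± 2.59% in LKO livers (SD, n = 2). The sum itself was 3.41 and 4.43 FPKM in WT livers and 2.38 and 2.64 FPKM in LKO livers, 64.1% of the WT mean, again without overlap (exact permutation p = 0.333). For the sum to equal its WT mean, Smarca2 would have had to stand at 3.33 FPKM in LKO livers, 1.62 times its WT mean, which is about the upper end of its interval (1.61-fold on the log2(FPKM + 0.1) scale). Smarca4 is part of both quantities, so its loss alone raises the share and lowers the sum. Neither comparison tests a change of Smarca2. The higher share came with a lower sum, and a higher level of Smarca2 was not measured beside it. The ratio of Smarca4 to Smarca2 was 1.10 and 0.786 in WT livers, where either ATPase could be the higher, and 0.344 and 0.281 in LKO livers.

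**Figure D2:**
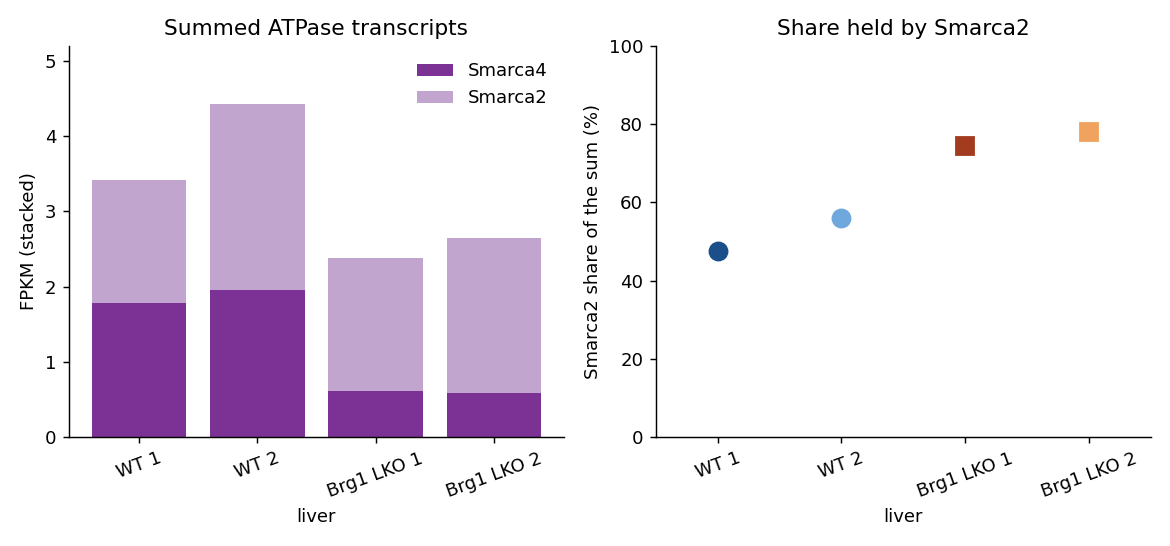
Left, FPKM of Smarca4 and Smarca2 stacked for each liver. Right, the share of that sum held by Smarca2 in percent, which was 47.7 and 56.0 in the WT and 74.4 and 78.1 in the Brg1 LKO livers while the sum was 3.41 and 4.43 against 2.38 and 2.64 FPKM.

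The Smarcc proteins, the mammalian relatives of yeast Swi3, pair up as the scaffold on which the complex assembles. Smarcc1 had 0.512 and 0.679 FPKM in WT livers and 0.394 and 0.804 FPKM in LKO livers. Its group means were nearly equal, 0.595 ± 0.118 against 0.599 ± 0.29 FPKM (SD, n = 2), and the log2 fold change was -0.05 (95% interval -0.87 to 0.78). Smarcc2, the more abundant of the pair, had 2.34 and 2.93 FPKM in WT livers and 1.79 and 3.66 FPKM in LKO livers (763, 944, 565 and 1071 estimated reads). Both genes had their lowest and their highest value in LKO livers, so the WT values lay inside the LKO range. The log2 fold change of Smarcc2 was -0.03 (95% interval -0.86 to 0.80), although its mean FPKM was the higher in LKO livers, 2.73 ± 1.32 against 2.63 ± 0.418 (SD, n = 2), as was that of Smarcc1. The share of Smarcc1 in the sum of the pair hardly varied, at 18.0% and 18.8% in the WT and 18.0% in each LKO liver.

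Smarcd1 and Smarcd2 encode alternative BAF60 proteins, which link the core to transcription factors. Smarcd2 was the most abundant of the 10 subunits in every liver, with 15.9 and 19.7 FPKM in WT livers and 15.1 and 16.2 FPKM in LKO livers. Its LKO values reached into the WT range, and its log2 fold change was -0.18 (95% interval -0.89 to 0.53), the lowest after Smarca4. Smarcd1 was among the least abundant, with 0.341 and 0.453 FPKM in WT livers and 0.296 and 0.607 FPKM in LKO livers (91, 120, 77 and 146 estimated reads). Here too the extremes were both LKO livers, and the log2 fold change was 0.10 (95% interval -0.73 to 0.93). Smarcd1 held 2.1% and 2.24% of the sum of the pair in WT livers and 1.92% and 3.63% in LKO livers.

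Arid1a and Arid1b encode the DNA-binding subunits that are used in turn in BAF, and a complex holds one or the other. Arid1a had 2.69 and 2.98 FPKM in WT livers and 2.63 and 4.59 FPKM in LKO livers (1781, 1949, 1686 and 2726 estimated reads). LKO liver 2 was high, and LKO liver 1 lay just under the WT livers. The log2 fold change of 0.29 (95% interval -0.49 to 1.07, unadjusted p = 0.44, limma) was the highest of the 10 subunits, and it was -0.10 without LKO liver 2 and 0.68 without LKO liver 1. Arid1b was a minor partner at 0.444 and 0.567 FPKM in WT livers and 0.436 and 0.538 FPKM in LKO livers, and its log2 fold change was -0.04 (95% interval -0.80 to 0.71). Its share in the sum of Arid1a and Arid1b was 14.2% and 16% in the WT and 14.2% and 10.5% in LKO livers.

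The subunits that define PBAF, Arid2 and the multiple-bromodomain protein encoded by Pbrm1, were not measurably different between the groups. Arid2 had 0.401 and 0.443 FPKM in WT livers and 0.439 and 0.392 FPKM in LKO livers, a narrow range in which the groups overlapped. Its log2 fold change was -0.02 (95% interval -0.76 to 0.73). Pbrm1 had 0.755 and 0.696 FPKM in WT livers and 0.579 and 0.930 FPKM in LKO livers. The WT values lay between the LKO values, and the log2 fold change was 0.02 (95% interval -0.75 to 0.79). Arid2 made up 11.4% and 11.1% of the summed Arid1a, Arid1b and Arid2 in WT livers and 12.5% and 7.10% in LKO livers, a difference of -1.42 percentage points (exact permutation p = 1.0). The low share in LKO liver 2 went with the high Arid1a of that liver, and the difference was 1.29 without it.

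Apart from Smarca4, 0 of the 9 other subunits passed the threshold (0.98% of all genes tested did), 0 had an unadjusted p under 0.05, and 0 had groups that did not overlap (20.7% of all genes). Their log2 fold changes ran from -0.18 to 0.29, with 3 above 0, 6 below 0 and a median of -0.03, beside a median of -0.02 for all genes tested. Of the 6 below 0, Smarcc1, Smarcc2, Arid1b and Arid2 lay at 0.01 to 0.03 under median-ratio rescaling, quantile normalization or both. Of all genes tested 72.0% lay within 0.29 of 0, a bound set by Arid1a. The median absolute log2 fold change was 0.05 for the 9 subunits and 0.17 for all genes tested, a difference that was not tested. The upper ends of their 95% intervals lay between 1.44-fold for Smarcd2 and 2.1-fold for Arid1a, and the lower ends between 0.539-fold and 0.711-fold. With 2 livers a group and libraries not rescaled, changes within these intervals are not excluded by this fit. The summed FPKM of the 9 subunits was 25.0 and 31 in WT livers and 23.4 and 29.7 in LKO livers (exact permutation p = 0.667).

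The order of the subunits by FPKM, a level per length of the listed transcript, was the same at the top of every liver, with Smarcd2 first, Arid1a next and Smarcc2 after it. Smarca4 took rank 4 of 10 in WT liver 1, rank 5 in WT liver 2 and LKO liver 1, and rank 8 in LKO liver 2. Smarca2 and Smarca4 changed places between the WT livers and did not differ beyond their spread. In the same way Smarcc1, Smarcd1, Arid1b and Arid2 exchanged the lower ranks from liver to liver. In WT livers Smarcd2 averaged 17.8 ± 2.71 FPKM (SD, n = 2), far above Arid1a at 2.83 ± 0.206, Smarcc2 at 2.63 ± 0.418 and Smarca2 at 2.05 ± 0.603 FPKM, which overlapped in part. The median gene tested had a mean of 1.7 FPKM.

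**Figure D3:**
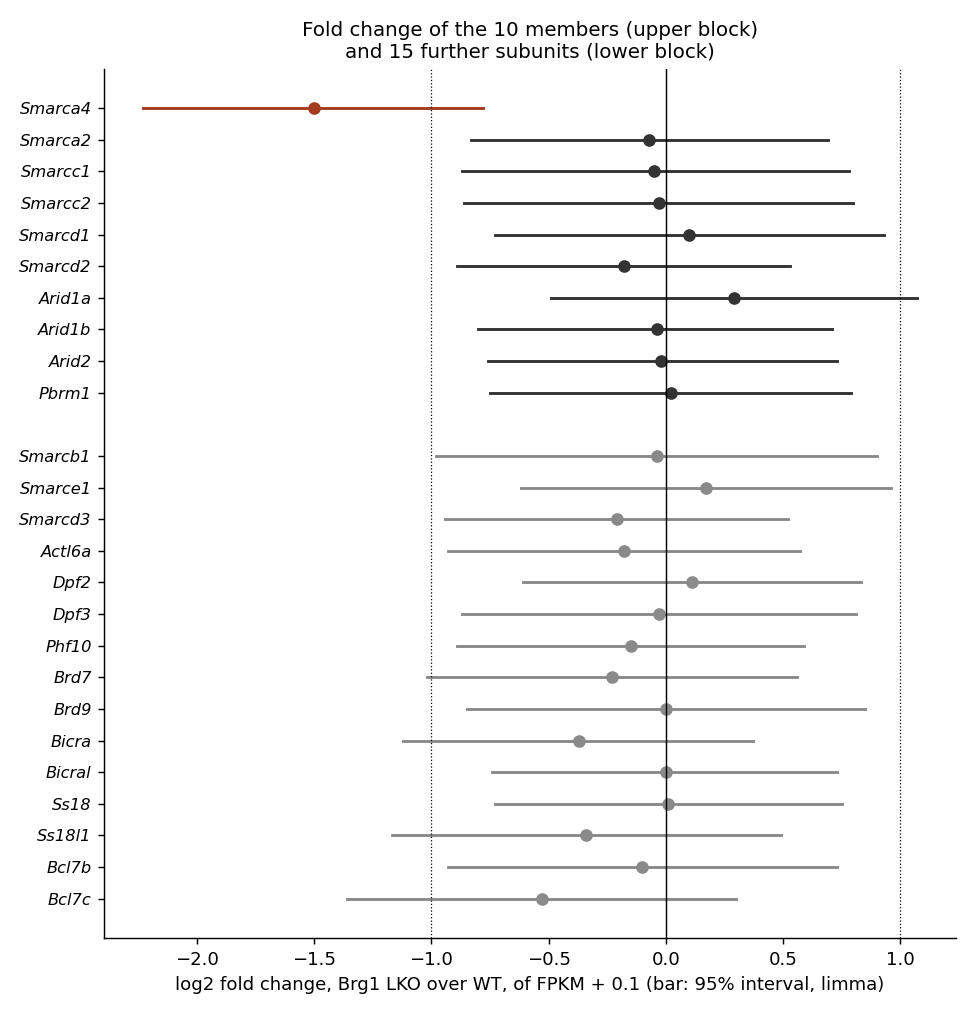
Log2 fold change (Brg1 LKO over WT, of FPKM + 0.1) of the 10 members and of 15 further SWI/SNF subunits, each point with its 95% interval from limma, dotted lines at a 2-fold change. Only the interval of Smarca4 (-2.23 to -0.78) leaves out 0, and the widest reach above 0 is that of Arid1a (1.07).

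Several subunits differed more between the LKO livers than between the groups. Smarcc1, Smarcc2 and Smarcd1 were each 2.04 to 2.05 times higher in LKO liver 2 than in LKO liver 1, Arid1a 1.74 times and Pbrm1 1.61 times. Smarca4 and Arid2 went the other way, at 0.952 and 0.892 times, and Smarcd2 (1.07), Smarca2 (1.17) and Arid1b (1.23) lay near or under the median of all genes (1.26). A ratio of at least 2 between the LKO livers was reached by 3 of the 10 subunits and by 4 of the 15 further subunits. Among all genes tested 13.9% reached it, and whether the subunits differ from that share was not tested. None of the 25 SWI/SNF subunits tested was 2 times higher in WT liver 2 than in WT liver 1 (5.09% of all genes). LKO liver 1 was the lowest of the 4 livers in 7 of the 9 subunits other than Smarca4 (46.6% of all genes), and LKO liver 2 the highest in 5 of 9 (41.0% of all genes). After median-ratio rescaling, which brings the libraries to a common median, Smarcc1, Smarcc2 and Smarcd1 were still 1.63 times higher in LKO liver 2 and Arid1a 1.39 times, whereas Smarca4 stood at 0.759 and Smarca2 at 0.929 times. The macrophage marker sum also differed between these livers (58.0 and 119.5 FPKM), and its part in the subunit values was not tested. The libraries also differed in their estimated totals (78170529 and 72591404 reads).

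**Figure D4:**
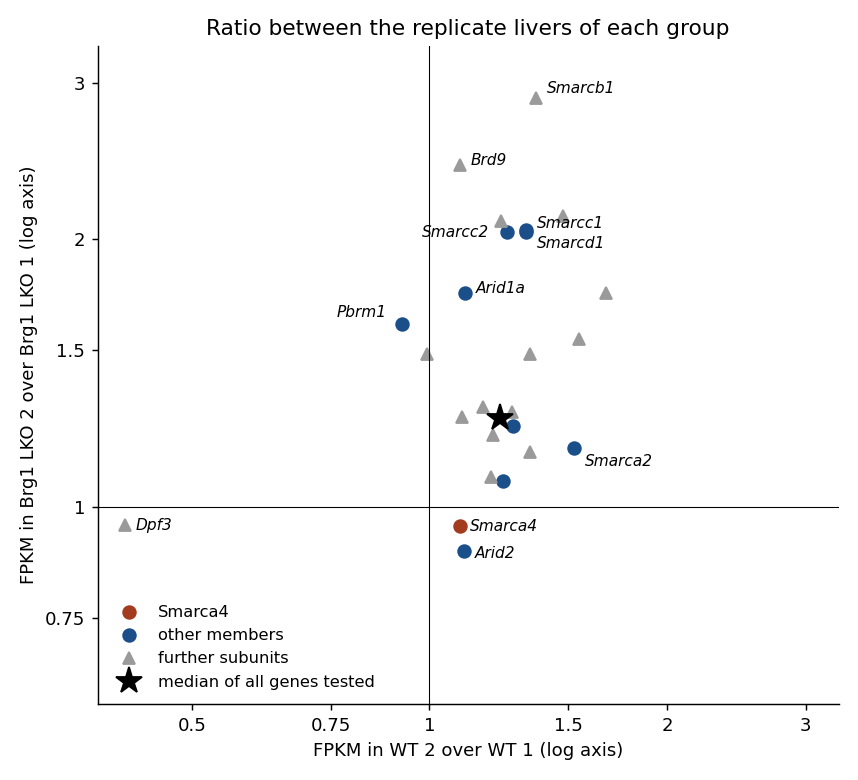
Ratio of FPKM between the replicate livers, WT 2 over WT 1 (x, log axis) and Brg1 LKO 2 over Brg1 LKO 1 (y, log axis), for the 10 members (circles) and 15 further subunits (triangles), with the median of all genes tested as a star at 1.23 and 1.26. Smarcc1, Smarcc2 and Smarcd1 lie close together at 2.04 to 2.05 on the vertical axis, and Smarca4 (0.952) and Arid2 (0.892) lie under 1.

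A further 20 subunits of the SWI/SNF complexes were read as well, of which 15 passed the filter on low values. None of the 15 passed the threshold (0 of 15, beside 0.98% of all genes tested). Groups did not overlap for 1 of them, Bicra, the scaffold of the non-canonical BAF complex (20.7% of all genes, in either direction). Bicra had 0.622 and 0.750 FPKM in WT livers and 0.461 and 0.555 FPKM in LKO livers, a log2 fold change of -0.37 (95% interval -1.12 to 0.37, unadjusted p = 0.304, limma). Its paralog Bicral had 0.682 and 0.816 FPKM in WT livers and 0.716 and 0.773 FPKM in LKO livers, which overlapped. The bromodomain protein Brd9, also of the non-canonical complex, had 0.324 and 0.354 FPKM in the WT and 0.213 and 0.515 FPKM in LKO livers. The fold changes of the 15 ran from -0.53 for Bcl7c to 0.17 for Smarce1 with a median of -0.10, 4 above 0 and 11 below. Smarcb1, the core subunit lost in rhabdoid tumors, showed the widest spread between LKO livers at 0.906 and 2.61 FPKM, around WT values of 1.37 and 1.87 FPKM, and its log2 fold change was -0.04 (95% interval -0.98 to 0.90) while its mean FPKM was the higher in LKO livers, 1.76 ± 1.21 against 1.62 ± 0.353 (SD, n = 2). Of the 15 subunits, 4 were at least 2 times higher in LKO liver 2 than in LKO liver 1, among them Smarcb1 (2.88 times) and Brd9 (2.42 times).

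Dpf2 and Ss18, further members of this list, were closer between the LKO livers than Smarcb1 and Brd9. Dpf2, a histone-reading BAF subunit, had 5.58 and 6.14 FPKM in the WT and 5.64 and 7.12 FPKM in LKO livers (log2 fold change 0.11). Ss18, a BAF subunit fused to SSX in synovial sarcoma, had 3.22 and 4.10 against 3.24 and 4.14 FPKM (log2 fold change 0.01). The PBAF subunits Brd7 and Phf10 had log2 fold changes of -0.23 and -0.15, and Smarcd3, a further BAF60 gene, -0.21. Among the 5 that did not pass the filter, Actl6b, the neuronal actin-related subunit, was at 0 in all 4 livers, which allows up to 3 reads in each, and Bcl11a and Bcl11b were at an estimated 10 reads or fewer. Dpf1 had 20 and 17 estimated reads in WT livers and 4 and 7 in LKO livers, too few for the fit, and Bcl7a between 20 and 62. Of the 20 listed subunits 6 stand under a transcript that the annotation does not class as protein coding, Smarcb1, Smarce1, Smarcd3, Phf10, Bcl7c and Dpf1, and of the 10 members Smarca2 does.

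Remodelers outside SWI/SNF were read from 4 further lists with 65 genes tested, and 0 passed the threshold (0.98% of all genes tested did). Of 10 genes of ISWI complexes, which space nucleosomes, the fold changes ran from -0.48 for Cecr2 to 0.27 for Chrac1. The 20 genes of the CHD remodelers and of NuRD, a CHD complex that couples remodeling to histone deacetylation, ran from -0.32 for Mta3 to 0.29 for Chd1l, and the 23 genes of INO80 and SWR1, which exchange histone H2A variants, from -0.38 for Ino80e to 0.61 for Mcrs1. Mcrs1 had 0.994 and 1.27 FPKM in WT livers and 1.24 and 2.52 FPKM in LKO livers, so LKO liver 2 was again the highest. Among 12 other SNF2 ATPases the range was -0.19 for Smarcal1 to 0.39 for Smarcad1, with a median of 0.10 beside -0.02 for all genes. Of these 12, 4 had both LKO values above both WT values (33.3%, beside 10.7% of all genes), and 0 had an unadjusted p under 0.05. In the same direction 1 of the 10 ISWI, 1 of the 20 CHD and NuRD and 0 of the 23 INO80 and SWR1 genes lay apart, so that over the 65 genes there were 6 (9.23%), near the share of all genes. Smarcad1, which works in heterochromatin maintenance and DNA end resection, was one of them, at 0.419 and 0.444 FPKM in the WT and 0.492 and 0.719 FPKM in LKO livers. Of 7 E2F transcription factors of the cell cycle, 0 passed the threshold, beside the same 0.98% of all genes. Their fold changes ran from -0.50 for E2f2 to 0.18 for E2f4 with a median of -0.28.

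**Figure D5:**
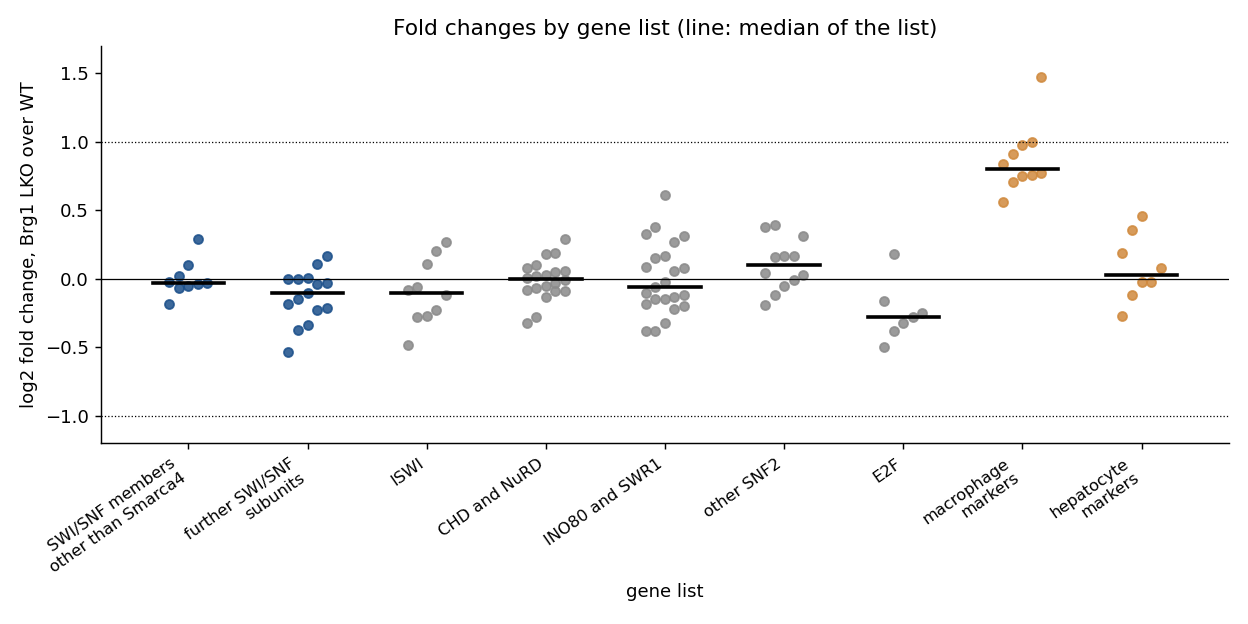
Log2 fold change (Brg1 LKO over WT) of each gene tested, by list, 1 point per gene, with the median as a line and dotted lines at a 2-fold change. The SWI/SNF members other than Smarca4 lie between -0.18 and 0.29 around a median of -0.03, while the 10 macrophage markers lie above 0 around a median of 0.80.

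Genes near the floxed locus were also read. Within 500 kb of Smarca4 the table lists 39 genes, of which 35 were tested. Of these 0 passed the threshold, beside 0.98% of all genes tested. An unadjusted p under 0.05 was reached by 1 of the 35, beside 247 of all 12346 genes tested. This was Pde4a, a cAMP phosphodiesterase gene named here after its value was seen, with 0.252 and 0.549 FPKM in the WT and 0.129 and 0.157 FPKM in LKO livers (log2 fold change -0.98, 95% interval -1.82 to -0.13, unadjusted p = 0.0262, limma). The median of the 35 was -0.17. The lowest fold change, -2.02, was that of the predicted gene Gm6484, which had 13.1 and 16 FPKM in WT livers, 0.622 FPKM in LKO liver 1 and 17.8 FPKM in LKO liver 2, so it came from a single liver. The highest, 0.57 for Swsap1, a partner in homologous recombination, also came from a single liver (0.236 and 0.895 FPKM in LKO livers against 0.295 and 0.285 FPKM).

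The genes whose profile over the 4 livers was most like that of Smarca4 were found by the root mean square distance between centred log2(FPKM + 0.1) values, among the 7732 genes that averaged 1 FPKM or more. They were Dos (distance 0.170), Gins2 (0.206), Mid1ip1 (0.258), Gse1 (0.265) and Cish (0.271). Gins2 encodes a subunit of the replicative helicase complex, Mid1ip1 a protein of fatty acid synthesis and Cish an inhibitor of cytokine signaling. Dos had 2.32 and 3.05 FPKM in WT livers and 1.16 and 0.902 FPKM in LKO livers, and Gins2 had 2.73 and 3.15 against 1.44 and 1.10 FPKM. These 5 genes were selected for this pattern over 4 libraries and are given as a description. Gins2 and Gse1 overlap on opposite strands, Gins2 at chr8:120578633-120589304 and Gse1 at chr8:120488447-120581390, and whether the counting used the strand is not given in the sources used here.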

How the data were processed

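RNA from whole livers of 2 WT and 2 Brg1 LKO mice was sequenced, and groups and replicate numbers were taken from the sample labels. The study's methods name Trimmomatic, HISAT2, GRCm38, Cufflinks for FPKM, HTSeq-count and DESeq on stranded TruSeq libraries, whereas the submitters' processing notes name HISAT2 2.0.4 and StringTie 2.1.4 and the labels a BGIseq protocol. The authors deposited FPKM values, for which no normalization between libraries is stated. FPKM divides by the library total, so a few abundant genes can shift all others. Each gene is listed under 1 transcript. GENCODE M21 gave lengths for 98.3% of the entries, and 9.8% of protein-coding genes stand under a non-coding transcript type. Gene symbols turned into dates (27) were restored, 83 entries shared a symbol, and 3 listed genes stood under older symbols. Of the marker genes, Trac was not found. Library totals came from the steps between values of up to 20 reads on transcripts of at least 2000 bases, of which 88.5% to 89.6% were within 0.1 of a whole read. Reads per gene are estimates, and limits cover counting error only.

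All genes averaging 0.1 FPKM or more entered a limma fit (version 3.58.1, R 4.3.3) of log2(FPKM + 0.1), with a mean-variance trend in eBayes, and the procedure was tested on simulated data. Adjusted p-values follow Benjamini-Hochberg over all genes. Shares were compared by exact permutation in Python 3.11.15 with SciPy 1.17.1. Sequences are from GENCODE M21 transcripts on GRCm38. The rule for named genes was all 10 subunits, further SWI/SNF subunits, every gene past the threshold and the largest rise and fall of the other lists, cell type markers, and the 5 genes most like Smarca4. The 10 subunits and all lists were chosen with earlier results of these data known. Alternatives tried were voom on estimated reads, eBayes without trend, quantile normalization, median-ratio rescaling, a replicate block, pseudocounts of 1 and 0.01, no filter, a filter at 1 FPKM, and leaving out each liver.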

Additional observations from a re-analysis of the deposited data

How the results depend on the processing

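With 2 livers a group, the intervals of single subunits span about a 2-fold change either way, and neither isoforms nor cell types can be separated. Smarca4 was lower under every alternative and past the threshold in all but 1. With a pseudocount of 1 its log2 fold change was -0.85, so 0 of the 10 subunits and 18 genes in all passed the threshold. The number of genes past the threshold was 80 with no filter on low values and 68 when genes under a mean of 1 FPKM were dropped, and it was 231 without WT liver 1, 78 without WT liver 2, 552 without LKO liver 1 and 450 without LKO liver 2, where the liver left alone in its group is assumed to vary like the others. With all 4 livers in the fit, adjusted p-values under 0.05 were reached by 0 genes except with the filter at 1 FPKM (2 genes). None of the further subunits passed the threshold under any alternative (0 in each).

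Many of the small fold changes changed sign. With 1 liver left out, the log2 fold change ran from -1.56 to -1.44 for Smarca4, from -0.36 to 0.22 for Smarca2, from -0.48 to 0.39 for Smarcc1, from -0.52 to 0.47 for Smarcc2, from -0.32 to 0.52 for Smarcd1, from -0.10 to 0.68 for Arid1a, from -0.19 to 0.10 for Arid1b, from -0.08 to 0.05 for Arid2 and from -0.28 to 0.32 for Pbrm1. Among further subunits it ran from -0.76 to 0.67 for Smarcb1, from -0.03 to 0.38 for Smarce1, from -0.05 to 0.28 for Dpf2, from -0.16 to 0.18 for Ss18, from -0.49 to 0.49 for Brd9, from -0.54 to 0.07 for Brd7, from -0.35 to 0.05 for Phf10 and from -0.12 to 0.11 for Bicral. The sign held for Smarcd2 (-0.34 to -0.03), Smarcd3 (-0.39 to -0.03), Bicra (-0.49 to -0.25) and Bcl7c (-0.91 to -0.15). Leaving out a liver also moved the median of all genes to between -0.17 and 0.12. The difference in the Arid2 share ran from -4.12 to 1.29 percentage points, and that in the Smarca2 share from 20.3 to 28.6. Median-ratio rescaling gave 0.01 for Smarcc2, 0.01 for Arid2 and 0.03 for Bicral. Quantile normalization gave 0.01 for Smarcc1, 0.01 for Arid1b, 0.03 for Arid2 and 0.04 for Bicral. A pseudocount of 1 gave 0.01 for Smarcb1, and Brd9 was at -0.03 with a pseudocount of 0.01 and at -0.04 with voom. The cause of these changes was not tested.

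With the replicate number as a block, 108 genes passed the threshold, 98 of them among the 121, and Smarca4 at -1.50 remained the 1 subunit past it. The labels give livers with the same number nothing else in common, and the block is no pairing by design. Their scale did go together. Median-ratio scale factors were 0.909 and 1.126 for WT livers 1 and 2, and 0.882 and 1.107 for LKO livers 1 and 2. The correlation of their deviations from the group means was 0.031, and a correlation across genes does not register a shift common to all genes.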
